A study of Rattus norvegicus with 12 samples.

Results

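Chemokines are small secreted proteins that direct the movement of leukocytes, and they act on receptors of the G protein-coupled family. CC ligands mostly attract monocytes, lymphocytes, eosinophils and dendritic cells, CXC ligands with an ELR motif attract neutrophils, and the other CXC ligands attract lymphocytes or keep them in place. Atypical receptors bind chemokines and remove them without signalling through G proteins. In inflamed airways, epithelium, fibroblasts, endothelium and macrophages are known sources of ligand, and the receptors are carried mainly by the recruited leukocytes. Every gene of this family with a probe set of its own on the array was examined here, which gave 47 of 14217 genes: 31 ligands and 16 receptors. Members were taken by symbol (Ccl, Cxcl, Cx3cl and Xcl ligands, Ccr, Cxcr, Cx3cr, Xcr and Ackr receptors, Pf4 and Ppbp). This rule does not refer to the measured differences, but it was set with earlier results of these data known. The members are read by 60 probe sets, 8 members having more than 1, and the probe set with the highest mean log2 signal over the 12 arrays stood for each gene. RefSeq lists 58 rat genes that fit the rule, and some of them were not analysed here. Ligands whose signalling receptor was not analysed are given without it.

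The bronchi came from the right diaphragmatic lobe of male Wistar Han rats that had inhaled air or 200 ppm of 2,3-pentanedione (PD), a vapour of artificial butter flavouring, over 2 weeks. Tissue was cut by laser from frozen sections of 6 air-exposed controls (arrays 1 to 6), 3 fibrotic PD-exposed bronchi (arrays 3, 7 and 9) and 3 non-fibrotic PD-exposed bronchi (arrays 4, 8 and 10). According to the methods, control and non-fibrotic specimens were bronchial epithelium with the wall beneath it, non-fibrotic bronchi could have reactive epithelium and mild inflammation, and fibrotic specimens were intraluminal polyps or plaques with the wall beneath them, in part from the same rats. Which specimens share a rat is not in the labels, so the p-values between the exposed groups take no account of it and may be inexact. The array measures amplified RNA, and its MAS5 signal is given on the log2 scale, where 1 unit is a doubling. Calls were made in a limma model of the 3 groups where the p adjusted by Benjamini-Hochberg was under 0.01, and "rose" and "fell" are used for called genes alone.

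Facts of the whole series bear on these values. Bacterial transcripts that were not in the samples reached a log2 signal of 6.52 (a signal of 91.7), which is called the level of absent transcripts here. Of the members, 11 lay above it on every array and 2, Cxcl11 and Ccr3, lay under it on every array. Where a whole group lay under it, a fold is given as a lower bound. Labels of controls 1 and 2 have the form of the exposed arrays' labels, and those of controls 3 to 6 have another. The mean log2 signal of added poly-A transcripts was 2.32 in controls 1 and 2, 10.35 in controls 3 to 6 and 10.07 in exposed arrays, and GAPDH signals near the 3′ end exceeded those near the 5′ end by a log2 of 1.60, 0.78 and 2.03. In control tissue the summed signal of 8 markers of ciliated cells ran from 15.34 to 15.92, so the epithelial markers of the labelled tissue were present, and in fibrotic specimens from 11.38 to 12.16. Since the tissue was measured in bulk, fewer cells of a type and less RNA in each cell cannot be told apart. Fibrotic and non-fibrotic bronchi were each compared with the same 6 controls, so these comparisons are not independent.

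In fibrotic bronchi 3 of 47 members rose (Ccr2, Pf4 and Ccl22) and 3 fell (Cxcl3, Ccl20 and Ackr3) relative to controls. Over all probe sets, 2.99% rose and 6.4% fell, and the members' shares were 6.38% in each direction. In non-fibrotic bronchi no member rose and 1 (Ccl20) fell in the limma model, where 0.164% and 0.358% of all probe sets did, and 5 members were higher and 8 lower at an unadjusted p under 0.05 (10.6% and 17%, against 14.6% and 11.8% of all probe sets). Fibrotic bronchi had higher Ccl9 and lower Ackr3 and Cxcl3 than non-fibrotic bronchi, beside 1.07% and 2.75% of all probe sets. The shares at an adjusted p under 0.01 also stand beside the counts of called markers and other listed genes below. At an adjusted p under 0.05 the members higher and lower in fibrotic bronchi than in controls were 10 and 5, against 7.6% and 10.3% of all probe sets. In non-fibrotic bronchi these counts were 1 and 2, against 2.82% and 3.02%. Between fibrotic and non-fibrotic bronchi they were 14 and 2, which is 29.8% and 4.26% of members, against 4.02% and 5.55% of all probe sets.

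Most chemokine genes had a higher mean in fibrotic bronchi than in controls, with 38 of 47 differences above 0 (80.9%, against 54.6% of all genes). The median log2 difference was 1.23 over the members, 1.23 over ligands, 1.31 over receptors and 0.10 over all genes, and it was 0.49 when signals under the level of absent transcripts were set to that level. It was 0.88, with 32 of 47 above 0, when controls 1 and 2 alone were used. In non-fibrotic bronchi the median was −0.39 over the members, beside 0.00 over all genes, and it parted by class, with −0.81 over ligands and 0.58 over receptors. With the level of absent transcripts as a floor, the medians of ligands and receptors in non-fibrotic bronchi were −0.07 and 0.04. Non-fibrotic array 8 was the lowest of its group in 34 of 47 members (72.3%, against 45.4% of all genes), and control 5 the lowest control in 24 (51.1%, against 14.4%). Whether these arrays set the counts was not tested beyond leaving each out.

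**Figure D1:**
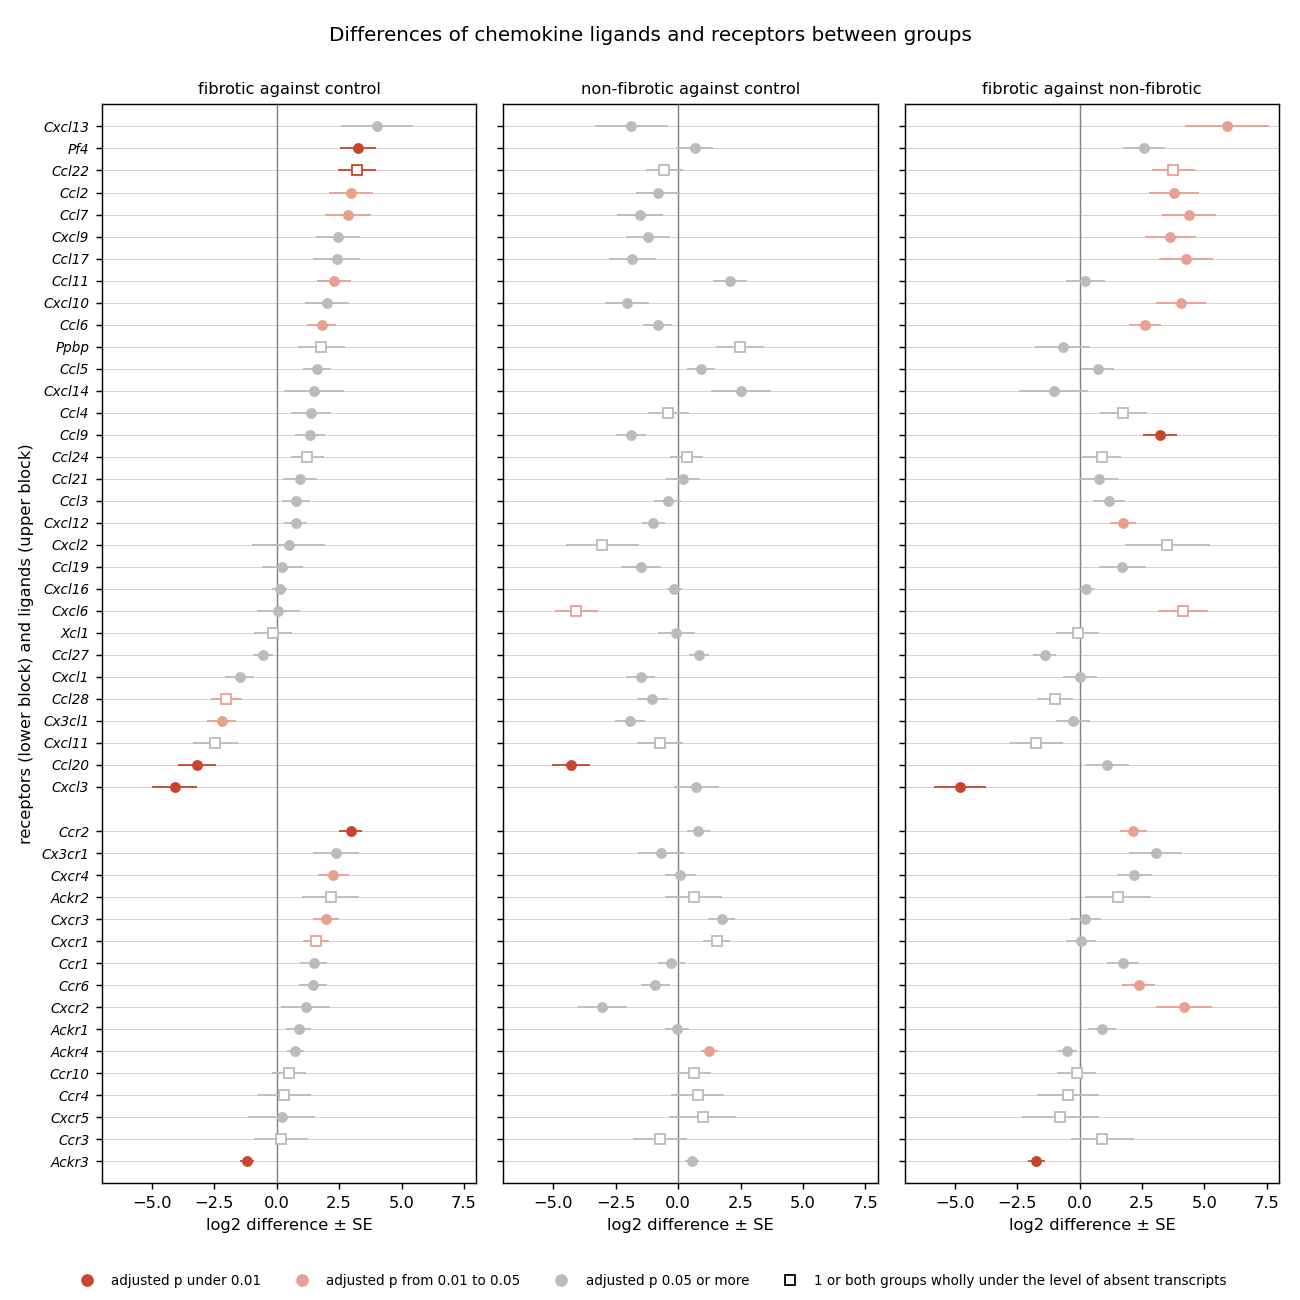
Log2 differences of the 31 ligands (upper block) and 16 receptors (lower block) in the 3 contrasts, each with its standard error from the limma model, ordered by the difference between fibrotic and control bronchi. Colour gives the adjusted p, and open squares mark comparisons in which 1 or both groups lay wholly under the level of absent transcripts. Most points of the left panel lie above 0, while ligands in the middle panel lie mostly below it.

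The promoters were searched for a motif of inflammatory genes. The letters GGG and TTCC with any 3 bases between them, a form of the kB site that NF-kB proteins bind, were searched on both strands from 250 bases before to 50 bases after the start of each gene in RefSeq (GRCr8). They were found in 10 of the 36 members with a listed promoter (27.8%) and in 5.37% of 33469 promoters. The members were Ccl6, Ccl7, Ccl9, Ccl20, Ccr3, Cxcl1, Cxcl2, Cxcl6, Cxcl10 and Cxcl11, of which Ccr3 is the only receptor. Of the 7 called members, Ccl9 and Ccl20 hold a match, Ackr3, Ccl22 and Ccr2 hold none in this window, and Cxcl3 and Pf4 have no entry. A match is a description of letters and not of a bound site. The 4 windows printed here are those of both called ligands that hold a match and of Cxcl1 and Cxcl6, neutrophil ligands that share 1 overlapping pair of matches, and capitals mark the matches.

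Ccl20, chr9:91836909-91837208, plus strand: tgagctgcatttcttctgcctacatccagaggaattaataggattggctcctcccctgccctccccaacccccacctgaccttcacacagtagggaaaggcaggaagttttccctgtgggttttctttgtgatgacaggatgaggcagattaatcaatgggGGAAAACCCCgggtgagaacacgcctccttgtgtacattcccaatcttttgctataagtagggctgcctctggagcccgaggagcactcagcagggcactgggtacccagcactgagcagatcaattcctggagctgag

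Ccl9, chr10:68868828-68869127, minus strand: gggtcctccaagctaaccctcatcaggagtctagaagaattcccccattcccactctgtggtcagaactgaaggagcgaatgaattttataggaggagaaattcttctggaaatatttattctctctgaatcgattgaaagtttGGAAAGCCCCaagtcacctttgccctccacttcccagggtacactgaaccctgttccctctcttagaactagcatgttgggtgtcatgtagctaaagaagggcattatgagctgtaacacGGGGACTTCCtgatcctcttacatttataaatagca

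Cxcl1, chr14:17479272-17479571, minus strand: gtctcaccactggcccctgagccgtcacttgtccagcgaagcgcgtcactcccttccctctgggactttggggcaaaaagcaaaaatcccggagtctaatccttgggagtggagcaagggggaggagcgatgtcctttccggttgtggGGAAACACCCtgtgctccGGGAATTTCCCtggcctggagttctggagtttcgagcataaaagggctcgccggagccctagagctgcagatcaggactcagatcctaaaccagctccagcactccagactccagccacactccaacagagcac

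Cxcl6, chr14:17596368-17596667, minus strand: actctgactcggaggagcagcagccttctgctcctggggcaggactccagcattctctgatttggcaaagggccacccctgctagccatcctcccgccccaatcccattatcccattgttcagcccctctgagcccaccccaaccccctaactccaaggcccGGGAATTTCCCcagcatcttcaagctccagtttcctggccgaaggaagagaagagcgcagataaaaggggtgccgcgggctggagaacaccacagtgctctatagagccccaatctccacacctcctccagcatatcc

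In Ccl20 the match starts 89 bases before the gene's start and lies on the minus strand, in Ccl9 a match starts 106 bases before it and another at base 15 of the transcript, and in Cxcl1 and Cxcl6 the overlapping pair starts 84 and 88 bases before it, with a further match in Cxcl1 at 102 bases.

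The monocyte axis held the call with the smallest p. Ccr2, the receptor that draws inflammatory monocytes out of the blood, had log2 signals of 10.01, 11.07 and 9.46 in fibrotic bronchi (arrays 3, 7 and 9), while controls ran from 6.35 through a median of 7.28 to 7.89. Every fibrotic array lay above every control and every non-fibrotic array, the latter at 8.68, 6.99 and 8.42. Ccr2 rose by a log2 of 2.96 (7.81-fold, SE 0.47, adjusted p = 0.000345) in fibrotic bronchi. The difference between non-fibrotic bronchi and controls was 0.81 (adjusted p = 0.278), and that between the exposed groups 2.15 (4.44-fold, adjusted p = 0.0195, over the 0.01 level). With controls 1 and 2 alone the log2 rise was 2.90 (adjusted p = 0.0194) and with controls 3 to 6 alone 3.00 (adjusted p = 0.00128). It was called in all 12 fits that left out 1 array.

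The ligands of Ccr2 also had their highest means in fibrotic bronchi. Ccl2, the main monocyte chemoattractant, had signals of 13.01, 13.27 and 11.46 in fibrotic bronchi and 11.46, 5.60 and 9.34 in non-fibrotic bronchi, and controls ran from 8.15 through a median of 9.89 to 10.52. Fibrotic arrays did not overlap with controls, and non-fibrotic bronchi ran from far below the control range (array 8) to above it (array 4). The mean was 7.85-fold higher in fibrotic bronchi than in controls (log2 2.97, SE 0.88, adjusted p = 0.0286), which was not called. Ccl7, a second ligand of Ccr2, had 9.76, 10.31 and 9.29 in fibrotic bronchi and 8.07, 1.96 and 6.20 in non-fibrotic bronchi, with controls from 5.82 through a median of 7.09 to 7.94. Here too the fibrotic arrays stood above all others, and the log2 differences were 2.85 (adjusted p = 0.0432) from controls and 4.38 (adjusted p = 0.0169) from non-fibrotic bronchi, or 2.67 and 2.75 with the level of absent transcripts as a floor. Without non-fibrotic array 8, Ccl2 and Ccl7 were both called in fibrotic bronchi. The summed signal of 15 markers of macrophages and monocytes was also highest in fibrotic bronchi, where 8 of the 15 rose and none fell. It was 13.98 to 14.86 in controls, 14.46 to 15.25 in non-fibrotic and 15.37 to 16.17 in fibrotic bronchi. In non-fibrotic bronchi none of the 15 was called, and their median log2 difference from controls was −0.75. The sum there had a higher mean than in controls, whereas Ccl2 and Ccl7 had lower means. The part of macrophages and monocytes in the values of Ccr2, Ccl2 and Ccl7 was not tested.

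**Figure D2:**
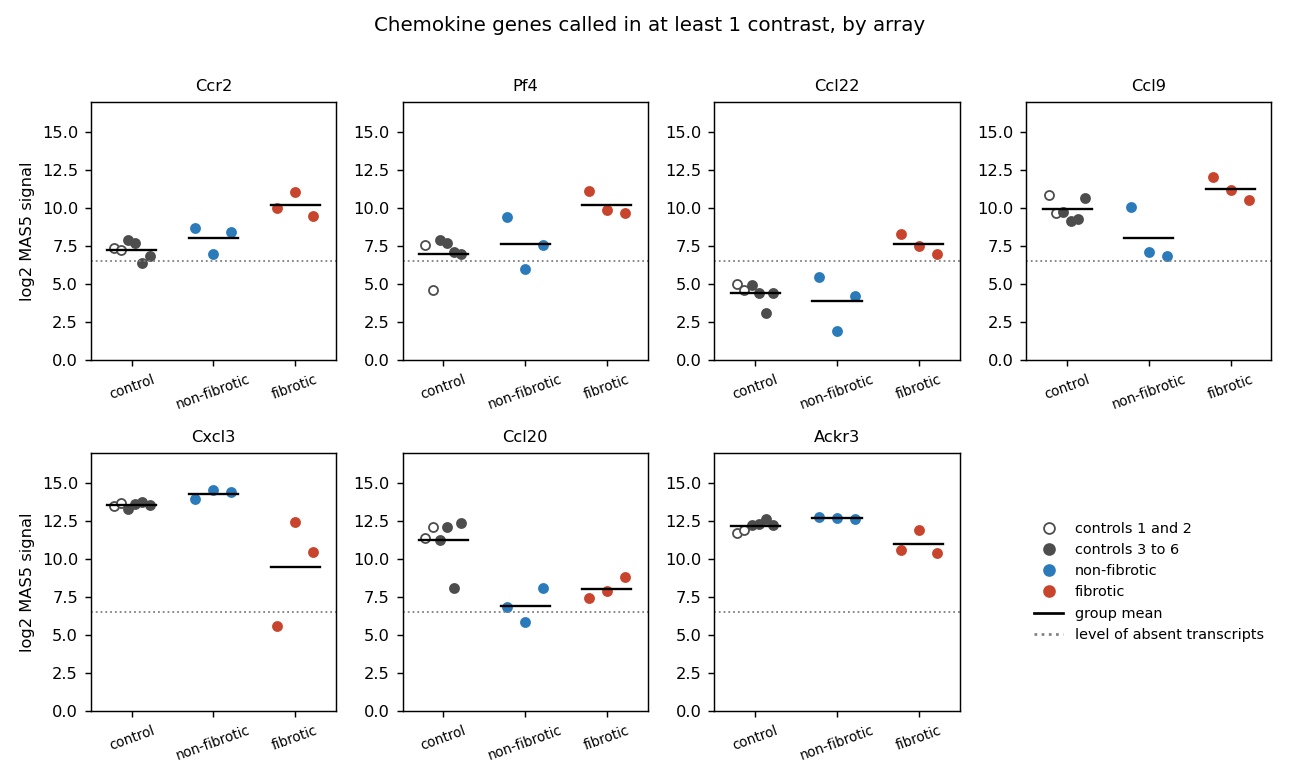
Log2 MAS5 signal of the 7 members called in at least 1 contrast, with a point for each array, a bar at the group mean and a dotted line at the level of absent transcripts (6.52). Open points are controls 1 and 2. Fibrotic arrays lie above all others for Ccr2, Pf4 and Ccl22 and below all others for Cxcl3, while Ccl20 is low in both exposed groups.

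Among ligands of Ccr1, a receptor of monocytes and macrophages, Ccl9 was called between the exposed groups. Ccl9, which is found in rodents, had 12.06, 11.17 and 10.53 in fibrotic bronchi and 10.10, 7.13 and 6.83 in non-fibrotic bronchi, with controls from 9.18 through a median of 9.73 to 10.88. The exposed groups did not overlap with each other, but each overlapped with the controls. Ccl9 was 9.41-fold higher in fibrotic than in non-fibrotic bronchi (log2 3.23, SE 0.69, adjusted p = 0.00795), while its differences from controls were 1.35 (adjusted p = 0.136) in fibrotic and −1.89 (adjusted p = 0.0687) in non-fibrotic bronchi. The call of Ccl9 held in 3 of 12 fits without 1 array, and its log2 difference was 4.27 without non-fibrotic array 4 and 2.64 without array 10 (not called). Ccl6, a related macrophage ligand, had means of 10.69 ± 0.78 (SD, n = 6) in controls, 12.50 ± 0.66 (n = 3) in fibrotic and 9.88 ± 1.70 (n = 3) in non-fibrotic bronchi, with a log2 difference of 2.62 (adjusted p = 0.0209) between the exposed groups. Ccr1 itself had 9.39, 8.40 and 9.57 in fibrotic and 7.94, 7.06 and 7.13 in non-fibrotic bronchi, with controls from 5.83 through a median of 7.63 to 9.19. Exposed groups were apart, both overlapped with the controls, and no contrast was called, with a log2 of 1.48 (adjusted p = 0.0763) between fibrotic bronchi and controls. Ccl3, Ccl4 and Ccl5, ligands made by macrophages and T cells, were near the level of absent transcripts, with control means of 6.69, 5.38 and 6.55 and fibrotic means of 7.46, 6.74 and 8.17. Of their fibrotic differences Ccl5's was the largest, with a log2 of 1.62 (adjusted p = 0.0581).

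For fractalkine and its receptor, ligand and receptor means went opposite ways. Cx3cl1, a membrane-bound ligand of epithelium and endothelium that binds monocytes, had means of 9.02 ± 0.83 (SD, n = 6) in controls, 6.81 ± 0.26 (n = 3) in fibrotic and 7.08 ± 1.63 (n = 3) in non-fibrotic bronchi. Fibrotic arrays lay under all controls (highest 6.99 against lowest 7.57), and the log2 difference of −2.21 had an adjusted p of 0.0176. Its receptor Cx3cr1, carried by monocytes and macrophages, had 10.01, 9.68 and 8.16 in fibrotic bronchi against 6.64 to 7.33 in controls, yet non-fibrotic array 4 at 8.54 and array 8 at 2.56 widened the spread, and the difference of 2.37 was not called (adjusted p = 0.0864). It was called without non-fibrotic array 8 and in a fit of fibrotic and control arrays alone.

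Among the neutrophil ligands, the only call was Cxcl3, and it depended on the probe set. Cxcl3 belongs with Cxcl1, Cxcl2 and Cxcl6 to the ELR ligands of Cxcr2, and 5 probe sets carry its symbol. The probe set with the highest signal, 1393182_at, had 5.60, 12.46 and 10.46 in fibrotic bronchi, 13.94, 14.55 and 14.45 in non-fibrotic bronchi and 13.30 through a median of 13.60 to 13.79 in controls. Controls and non-fibrotic bronchi lay within a narrow band at the top of the array's range, and the fibrotic arrays were each lower but far apart. Cxcl3 fell by 4.08 on the log2 scale (SE 0.90, adjusted p = 0.00506) in fibrotic bronchi relative to controls and was lower by −4.80 (adjusted p = 0.00859) than in non-fibrotic bronchi, or −3.78 and −4.50 with the level of absent transcripts as a floor. The second probe set, 1388033_at, had the same pattern with −4.86 (adjusted p = 0.00138) and −5.36 (adjusted p = 0.00422). Without fibrotic array 3, by far the lowest, the differences of the first probe set were −2.13 from controls and −2.85 from non-fibrotic bronchi, and without fibrotic array 7 they were −5.56 and −6.28. With 1 array left out, the first probe set was called against controls in 11 of 12 fits (not without control 6) and between the exposed groups in 2 of 12, and with controls 1 and 2 alone its difference from controls was −4.11 (adjusted p = 0.109).

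The other 3 Cxcl3 probe sets, 1370633_at, 1388032_a_at and 1370634_x_at, gave another picture. All 3 were designed on 1 transcript record and the first pair on 2 others, and their mean signals over all arrays were 8.92, 8.83 and 8.51, against 12.75 and 12.07. Their differences between fibrotic bronchi and controls were −1.13, −1.02 and −1.26 (adjusted p = 0.213, 0.149 and 0.09), and those between non-fibrotic bronchi and controls were −1.81, −1.20 and −1.93 (adjusted p = 0.0784, 0.123 and 0.0348). Differences of fibrotic from non-fibrotic bronchi were 0.68, 0.18 and 0.67, opposite in sign to the first pair. Which transcript, or whether another gene's, each probe set reads is not settled by the sources used here, so the call holds for the first pair of probe sets and not for the symbol as a whole. The order of the fibrotic arrays in the first pair (array 3 lowest, array 7 highest) was also that of the summed signal of alveolar type II markers (12.45 in array 3, 12.83 in array 9 and 15.71 in array 7, against 15.02 to 15.76 in controls). Neutrophil markers had this order too (12.92, 12.93 and 13.7), as did genes that hold, shed or trap ligands (13.79, 13.99 and 14.01). Ciliated and secretory cell markers were lower in all fibrotic arrays, at 11.38 to 12.16 and 12.81 to 14.13 against 15.34 to 15.92 and 15.79 to 17.07 in controls. Their orders differed from that of the first pair, with array 9 the highest for ciliated and the lowest for secretory markers. The part of these cells in the fall of Cxcl3 was not tested.

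**Figure D3:**
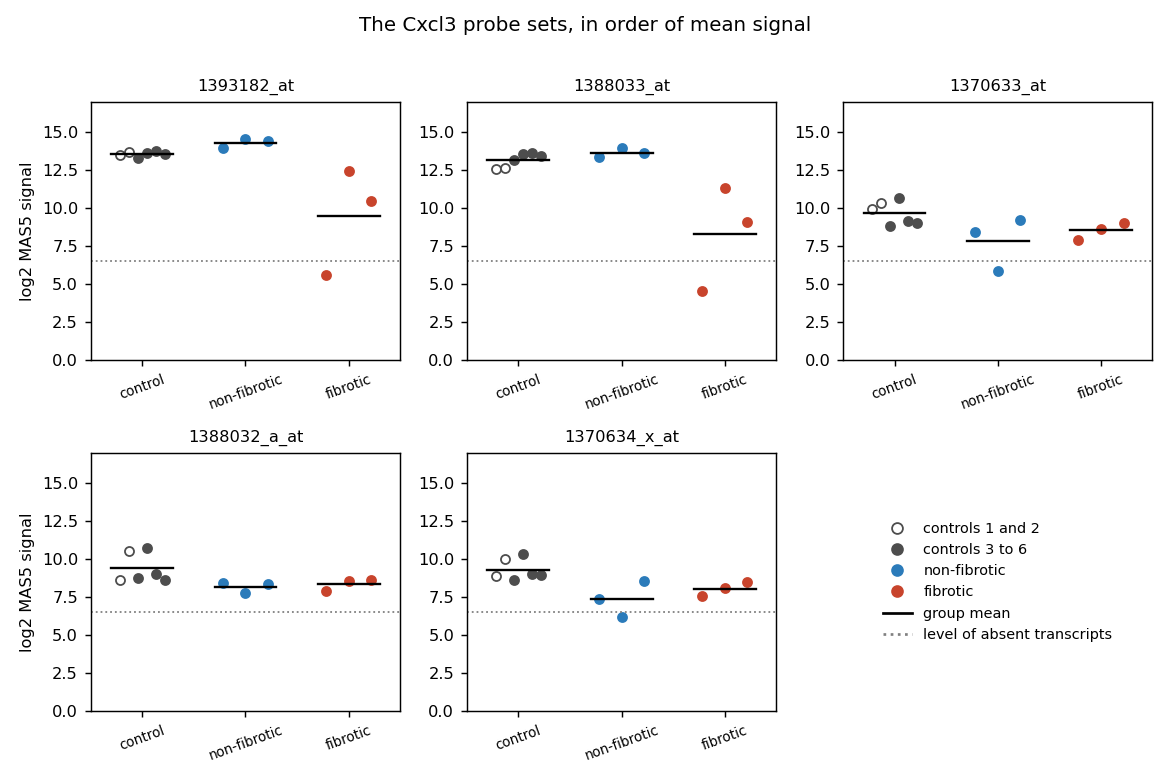
Log2 MAS5 signal of the 5 probe sets of Cxcl3 on each array, in order of mean signal, with a bar at the group mean, open points for controls 1 and 2 and a dotted line at the level of absent transcripts. In 1393182_at and 1388033_at the fibrotic arrays are low and scattered, and in the other 3 the means of both exposed groups lie under the control mean.

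Unlike the first pair of Cxcl3 probe sets, Cxcl6, Cxcl1 and Cxcl2 had lower means in non-fibrotic bronchi than in controls. The fibrotic arrays of Cxcl1 had the order of that pair, with array 3 lowest and array 7 highest. Cxcl6 had means of 7.68 ± 1.57 (SD, n = 6) in controls, 7.75 ± 1.07 (n = 3) in fibrotic and 3.60 ± 1.56 (n = 3) in non-fibrotic bronchi, whose arrays (5.08, 1.96 and 3.75) lay under every control and under the level of absent transcripts. It was at least 2.24-fold lower in non-fibrotic bronchi than in controls (adjusted p = 0.0197) and at least 2.34-fold higher in fibrotic than in non-fibrotic bronchi (adjusted p = 0.0168), neither of which was called. Cxcl1 had 8.66, 12.21 and 9.39 in fibrotic bronchi, and its differences from a control mean of 11.56 were −1.47 (adjusted p = 0.0904) in fibrotic and −1.49 (adjusted p = 0.118) in non-fibrotic bronchi. Without fibrotic array 7, which lay above every control but control 4, Cxcl1 was called in fibrotic bronchi. Every non-fibrotic array of Cxcl1 (9.69, 10.42 and 10.09) lay under the lowest control at 10.89. Cxcl2 was near the level of absent transcripts, with means of 6.45 ± 2.83 (SD, n = 6), 6.93 ± 1.98 (n = 3) and 3.41 ± 2.67 (n = 3) in controls, fibrotic and non-fibrotic bronchi, and no contrast was called.

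Of the receptors of the neutrophil axis, Cxcr2 had its lowest mean in non-fibrotic bronchi, and Cxcr1 was under or near the level of absent transcripts. Cxcr2, the main neutrophil receptor, had 8.65, 9.41 and 9.17 in fibrotic and 7.25, 1.55 and 5.85 in non-fibrotic bronchi, with controls from 5.54 through a median of 8.21 to 9.13. Fibrotic arrays overlapped with controls, and non-fibrotic arrays lay under all fibrotic ones (log2 difference 4.19, or 2.32 with the level of absent transcripts as a floor, adjusted p = 0.027). Cxcr1, the other receptor of Cxcl6, lay under that level on all controls and near it on exposed arrays, at 6.47 to 6.84 in fibrotic and 6.28 to 6.88 in non-fibrotic bronchi, which puts it at least 1.07-fold higher in fibrotic bronchi (adjusted p = 0.0493). Of 9 measured neutrophil markers 1, Fcnb, rose in fibrotic bronchi, and their summed signal was 9.77 to 13.26 in controls, 12.92 to 13.70 in fibrotic and 9.00 to 11.53 in non-fibrotic bronchi. In control 5 and non-fibrotic array 8 this sum was the lowest of the group (9.77 and 9.00), as was Cxcr2. The neutrophil marker Camp lay under the level of absent transcripts on every array.

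The platelet chemokines measured were Pf4 and Ppbp. Pf4, a heparin-binding CXC chemokine stored in platelet granules, had 11.10, 9.88 and 9.69 in fibrotic and 9.39, 5.96 and 7.55 in non-fibrotic bronchi, with controls from 4.59 through a median of 7.34 to 7.89. All fibrotic arrays lay above all others, non-fibrotic array 4 being the nearest. Pf4 rose by a log2 of 3.25 (SE 0.73, adjusted p = 0.00587), or 2.93 with the level of absent transcripts as a floor, in fibrotic bronchi relative to controls, and the difference of 2.59 between the exposed groups was not called (adjusted p = 0.0675). The rise of Pf4 was called in 7 of 12 fits without 1 array, and with controls 1 and 2 alone it was 4.13 (adjusted p = 0.0354). Ppbp, the other platelet chemokine and a ligand of Cxcr2, lay under the level of absent transcripts on all controls, and its adjusted p was 0.21 in fibrotic and 0.117 in non-fibrotic bronchi. Of 7 platelet and megakaryocyte markers, Itgb3, an integrin also made by other cells, rose in fibrotic bronchi and none fell, and the platelet-defining Gp9 and Treml1 lay under the level of absent transcripts on every array. The summed signal of these 7 was 9.23 to 11.04 in controls, 11.70 to 12.23 in fibrotic and 8.99 to 10.61 in non-fibrotic bronchi. Yet 4 of the 7 lay under that level on all fibrotic arrays, and 4 did so on all controls. The median log2 difference of the 7 from controls was 1.42 in fibrotic and 0.94 in non-fibrotic bronchi. Between fibrotic and non-fibrotic bronchi it was −0.21. The part of platelets in the rise of Pf4 was not tested.

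Ccl20 was the only member called in both exposed groups. It is made by airway epithelium and draws dendritic cells and lymphocytes that carry Ccr6. Its signals were 7.44, 7.88 and 8.79 in fibrotic and 6.85, 5.87 and 8.07 in non-fibrotic bronchi, and controls ran from 8.09 through a median of 11.75 to 12.40. Control 5, at 8.09, was far under the other controls (11.25 to 12.40) and inside the fibrotic range, while non-fibrotic arrays lay under every control by a narrow margin. Ccl20 fell by 3.20 on the log2 scale (SE 0.75, adjusted p = 0.00728) in fibrotic and by 4.30 (SE 0.75, adjusted p = 0.00786) in non-fibrotic bronchi, or −4.08 in the latter with the level of absent transcripts as a floor. The mean in fibrotic bronchi was 2.15-fold that in non-fibrotic bronchi (adjusted p = 0.488). With controls 1 and 2 alone the differences were −3.71 (adjusted p = 0.0074) and −4.82 (adjusted p = 0.0215), and with controls 3 to 6 alone −2.94 (adjusted p = 0.0257) and −4.04 (adjusted p = 0.0117). Without 1 array the falls were called in 4 and 2 of 12 fits. The ciliated cell markers, which were low in fibrotic bronchi, summed to 15.21 to 15.74 in non-fibrotic bronchi and 15.34 to 15.92 in controls, and none of the 8 was called there. Of 9 club and secretory cell markers, Scgb3a1 and Pon1 fell in non-fibrotic bronchi (list median −1.22), and their summed signal was 15.63 to 16.38 against 15.79 to 17.07 in controls. Their part in the fall of Ccl20 was not tested.

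Its receptor Ccr6 was called in no contrast. Ccr6 had 11.22, 10.80 and 11.38 in fibrotic and 9.55, 8.00 and 8.74 in non-fibrotic bronchi, with controls from 7.39 through a median of 9.77 to 10.90. Fibrotic array 7 lay under control 1, the highest control, the other fibrotic arrays lay above all controls, and non-fibrotic arrays lay under all fibrotic ones. Neither difference from controls was called (1.46, adjusted p = 0.0914, and −0.91, adjusted p = 0.32), and the difference between the exposed groups was 2.37 (adjusted p = 0.033).

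**Figure D4:**
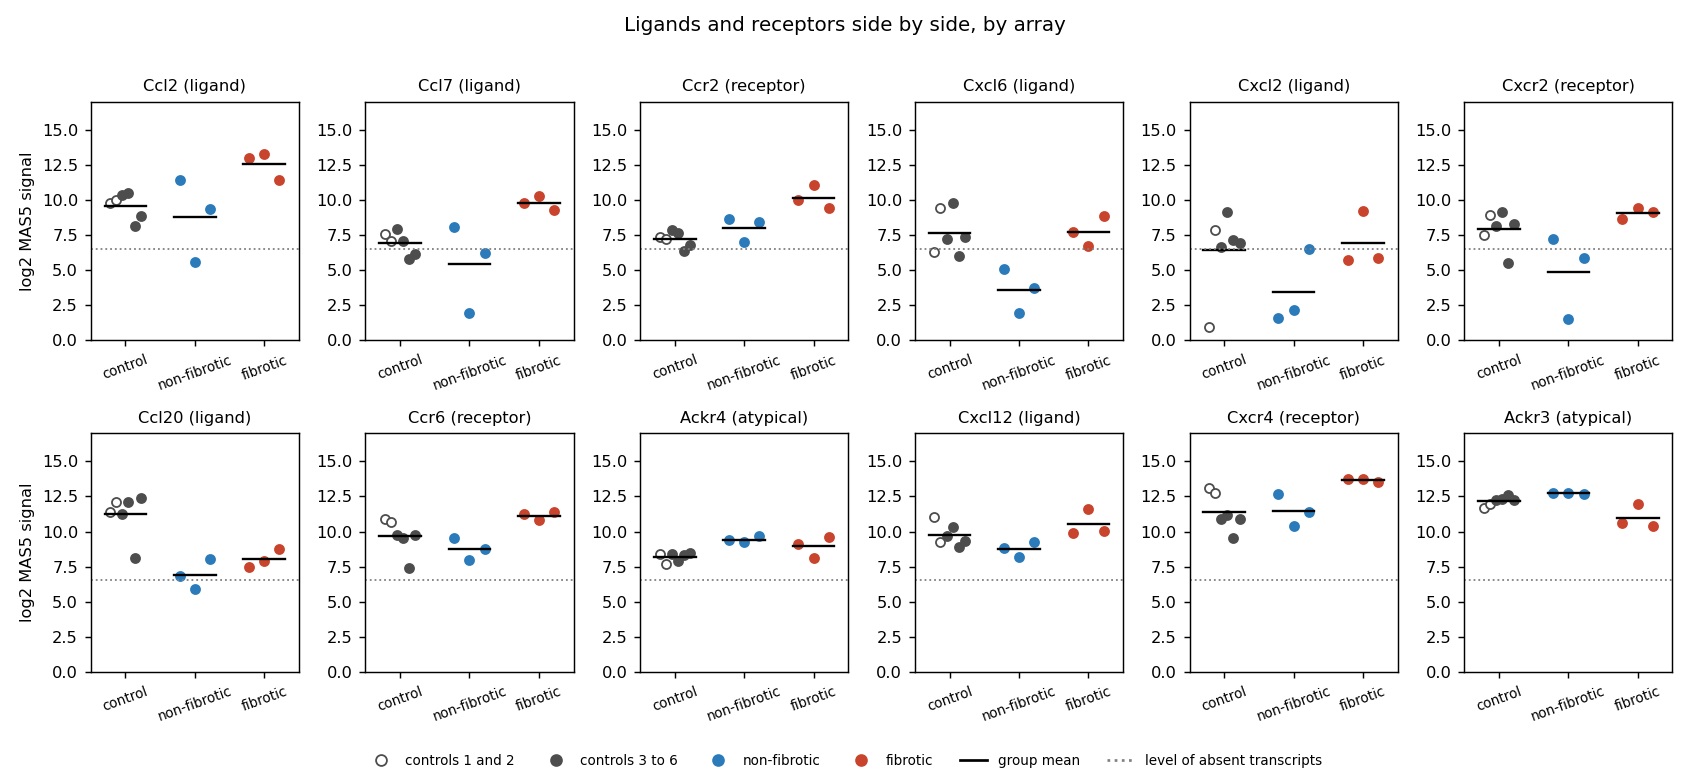
Log2 MAS5 signal on each array for ligands beside their receptors: Ccl2 and Ccl7 with Ccr2, Cxcl6 and Cxcl2 with Cxcr2, Ccl20 with Ccr6, Cxcl12 with Cxcr4 and Ackr3, and the atypical receptor Ackr4. Bars are group means, open points are controls 1 and 2 and the dotted line is the level of absent transcripts. Ccl2, Ccl7 and Ccr2 are all highest in fibrotic bronchi, whereas Ccl20 has its highest mean in controls and Ccr6 in fibrotic bronchi.

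Ligands of Ccr4, a receptor of type 2 helper and regulatory T cells, had higher means in fibrotic bronchi, and the receptor lay mostly under the level of absent transcripts. Ccl22, a product of macrophages and dendritic cells, had 8.32, 7.51 and 6.99 in fibrotic and 5.46, 1.91 and 4.19 in non-fibrotic bronchi, with controls from 3.11 through a median of 4.50 to 4.98. The fibrotic arrays alone lay above the level of absent transcripts. Ccl22 rose at least 2.13-fold (adjusted p = 0.00758) over controls and was at least 2.13-fold higher than in non-fibrotic bronchi (adjusted p = 0.0127, not called). In its other probe set, 1370619_at, it was at least 1.56-fold higher than in controls (adjusted p = 0.016, not called), with 1 fibrotic array also under the level of absent transcripts. The rise of Ccl22 was called in 4 of 12 fits without 1 array, and with controls 1 and 2 alone its adjusted p was 0.209. Ccl17, the second ligand of Ccr4, had means of 7.19 ± 0.99 (SD, n = 6) in controls, 9.59 ± 1.20 (n = 3) in fibrotic and 5.34 ± 2.88 (n = 3) in non-fibrotic bronchi, with adjusted p-values of 0.0894 against controls and 0.0215 between the exposed groups. Ccr4 lay under the level of absent transcripts on 11 of 12 arrays. The fibrotic arrays had 5.63, 3.38 and 6.38, the non-fibrotic ones 5.21, 4.87 and 6.70, and controls ran from 0.73 through a median of 5.55 to 6.28, so the groups overlapped and no fold is given. The summed signal of 8 dendritic cell markers was 9.07 to 11.33 in controls, 12.06 to 12.42 in fibrotic and 9.53 to 11.11 in non-fibrotic bronchi, and Cd80 and Clec9a of these rose in fibrotic bronchi. Their part in the values of Ccl22 and Ccl17 was not tested.

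The eotaxins attract eosinophils through Ccr3. Ccl11, which fibroblasts make, had means of 6.81 ± 0.94 (SD, n = 6) in controls, 9.11 ± 0.50 (n = 3) in fibrotic and 8.88 ± 1.83 (n = 3) in non-fibrotic bronchi. Its log2 differences from controls were 2.30 (adjusted p = 0.0264) in fibrotic and 2.07 (adjusted p = 0.0729) in non-fibrotic bronchi, and that between the exposed groups was 0.23 (SE 0.78, adjusted p = 0.898). Ccl24 lay under the level of absent transcripts on 10 of 12 arrays and Ccr3 on all, so the ligand cannot be set beside a measured receptor. Of 6 eosinophil markers none was called in any contrast, and Il5ra and Ccr3 lay under that level on every array. Of 11 fibroblast markers 6 rose in fibrotic bronchi and none was called in non-fibrotic bronchi against controls.

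Ligands of Cxcr3, the receptor of activated T cells and natural killer cells, are induced by interferon. Cxcl9 had 9.24, 9.72 and 9.43 in fibrotic and 6.85, 3.05 and 7.59 in non-fibrotic bronchi against 5.33 to 8.79 in controls, and Cxcl10 had means of 9.69 ± 0.83 (SD, n = 3), 5.61 ± 2.18 (n = 3) and 7.66 ± 1.45 (n = 6) in the same order. Cxcl9 in fibrotic bronchi lay above all other arrays, but against controls it was not called (2.44, adjusted p = 0.068), nor was Cxcl10 (2.03, adjusted p = 0.124). Between the exposed groups the log2 differences were 3.63 (adjusted p = 0.0342) for Cxcl9 and 4.07 (adjusted p = 0.0187) for Cxcl10, or 2.48 and 2.83 with the level of absent transcripts as a floor. Cxcl11, the third ligand, lay under the level of absent transcripts on every array. Cxcr3 had means of 5.97 ± 0.76 (SD, n = 6) in controls, 7.94 ± 0.44 (n = 3) in fibrotic and 7.71 ± 0.82 (n = 3) in non-fibrotic bronchi, so, unlike Cxcl9 and Cxcl10, the receptor had close means in both exposed groups (difference 0.23, adjusted p = 0.869), and its differences from controls were 1.97 (adjusted p = 0.0167) and 1.74 (adjusted p = 0.0606). Ifng, the gene of interferon gamma, lay under the level of absent transcripts on every array, and Ifngr1, a chain of its receptor, rose in fibrotic bronchi against controls (1.03, adjusted p = 0.00983).

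Lymphoid chemokines, which place B and T cells in follicles and T zones, varied widely within groups. Cxcl13, the B cell ligand of lymphoid follicles, had 13.10, 10.65 and 12.59 in fibrotic and 10.54, 0.71 and 7.39 in non-fibrotic bronchi, and controls ran from 6.00 through a median of 8.16 to 10.31. Fibrotic arrays lay above all others, control 1 and non-fibrotic array 4 being next, and the log2 difference from controls of 4.03 had an SE of 1.45 and was not called (adjusted p = 0.0671). Against non-fibrotic bronchi it was 5.90 (adjusted p = 0.0363), or 3.96 with the level of absent transcripts as a floor. Its receptor Cxcr5 lay under that level on 9 of 12 arrays, the exceptions being control 1 (7.67) and fibrotic arrays 3 and 9 (7.40 and 7.24), and fibrotic array 7 was at 0.24. Ccl19 and Ccl21, which guide T cells and dendritic cells, had control means of 10.47 ± 1.45 and 8.70 ± 1.45 (SD, n = 6), fibrotic means of 10.70 ± 1.20 and 9.64 ± 0.55 (n = 3) and non-fibrotic means of 8.99 ± 1.76 and 8.88 ± 0.96 (n = 3), and no contrast was called.

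Among the controls, arrays 1 and 5 stood at the ends for these genes and for several marker lists. Control 1 was the highest control for Ccl19 (12.08), Ccl21 (11.30), Cxcl13 (10.31), Ccr6 (10.90), Cxcr4 (13.10) and Cxcr5 (7.67), and it also had the highest summed signals of T cell markers (13.05) and of B and plasma cell markers (13.14), as well as those of natural killer cells, dendritic cells, mast cells, platelets, lymphatic endothelium, fibroblasts and smooth muscle. Control 5 was the lowest control for Ccl19 (7.77), Ccl21 (6.98), Cxcl13 (6.00), Ccr6 (7.39) and Cxcr4 (9.53) and had the lowest T and B cell sums (9.31 and 10.12), as well as those of macrophages, neutrophils, natural killer cells, dendritic cells, platelets and lymphatic endothelium. In fibrotic bronchi the T and B cell sums were 12.82 to 13.19 and 11.84 to 13.55, and in non-fibrotic bronchi 10.53 to 12.18 and 9.14 to 12.42, with array 8 the lowest in both. None of 13 T cell and 7 B cell markers was called against controls, and what part lymphocytes or other cells in the captured wall had in these chemokine values was not tested.

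**Figure D5:**
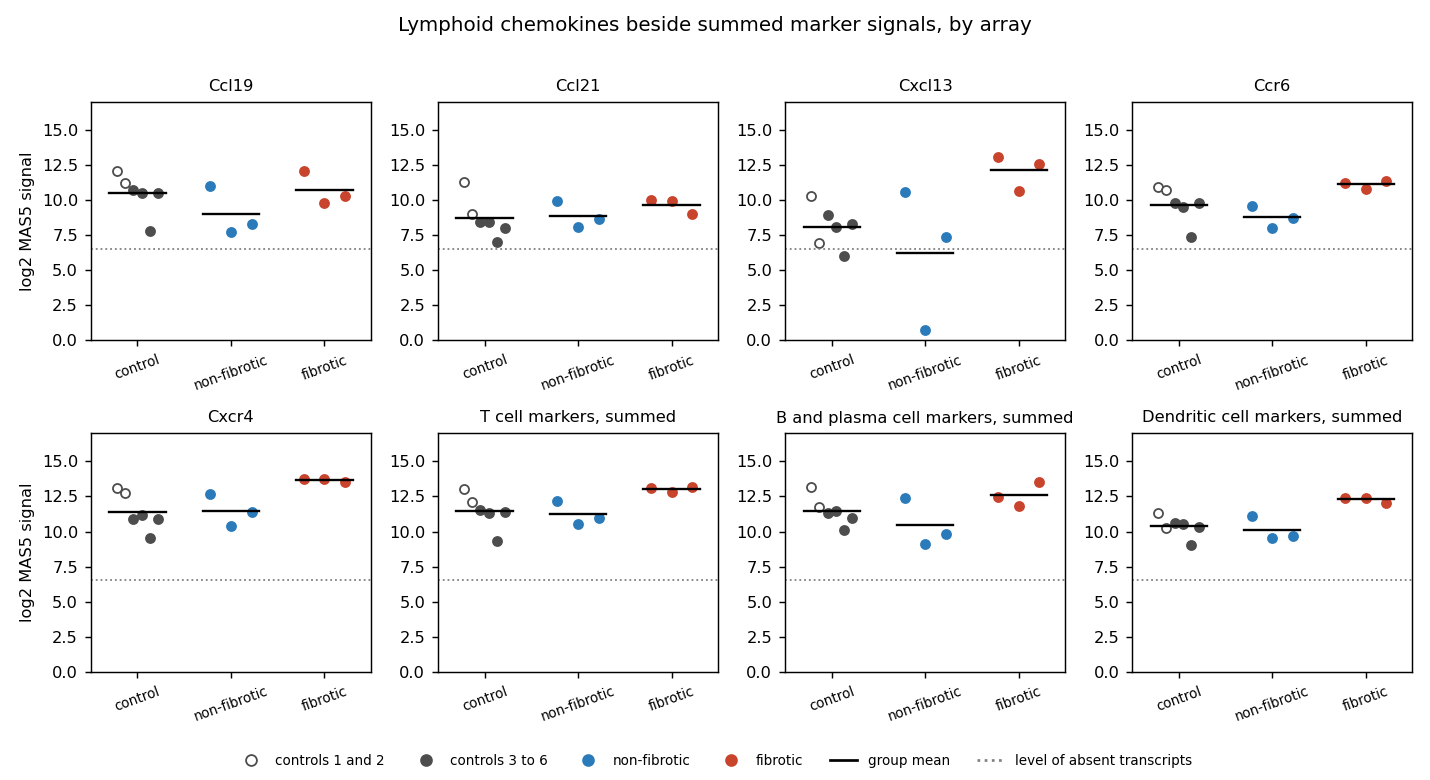
Log2 MAS5 signal of Ccl19, Ccl21, Cxcl13, Ccr6 and Cxcr4 on each array beside the log2 of the summed signal of T cell, B and plasma cell, and dendritic cell markers, with bars at group means, open points for controls 1 and 2 and a dotted line at the level of absent transcripts. For each of the 5 genes control 1 is the highest and control 5 the lowest control.

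Cxcl12 has a signalling receptor, Cxcr4, and an atypical one, Ackr3. Cxcl12, a stromal ligand that retains lymphocytes and stem cells, had 9.93, 11.58 and 10.02 in fibrotic and 8.84, 8.18 and 9.25 in non-fibrotic bronchi, with controls from 8.93 through a median of 9.51 to 11.01. Exposed groups did not overlap (log2 difference 1.75, adjusted p = 0.0452), and neither differed from controls at 0.05 (0.76, adjusted p = 0.265, and −0.99, adjusted p = 0.176). In its other probe sets, 1388583_at and 1369633_at, the exposed groups overlapped, with adjusted p-values of 0.0663 and 0.23 between them. Cxcr4, the signalling receptor, had 13.73, 13.76 and 13.52 in fibrotic bronchi, above all controls (9.53 to 13.10) and all non-fibrotic arrays (12.66, 10.39 and 11.38). Its difference from controls was 2.27 (4.82-fold, adjusted p = 0.0174), and 2.07 (adjusted p = 0.0244) and 1.14 (adjusted p = 0.163) in its other probe sets, 1389244_x_at and 1370097_a_at. In the same order of probe sets, non-fibrotic bronchi differed from controls by 0.08, −0.26 and −1.55 (adjusted p = 0.952, 0.816 and 0.0911). Between the exposed groups the differences were 2.19, 2.33 and 2.69 (adjusted p = 0.065, 0.0442 and 0.0133). Controls 1 and 2 (13.10 and 12.76) were nearer to the fibrotic arrays than controls 3 to 6 (9.53 to 11.17), and Cxcr4 was called with controls 3 to 6 alone.

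Ackr3, the atypical receptor that clears Cxcl12 and Cxcl11, was lower in fibrotic bronchi. Its signals were 10.60, 11.94 and 10.43 in fibrotic and 12.78, 12.72 and 12.67 in non-fibrotic bronchi, with controls from 11.70 through a median of 12.24 to 12.64. Non-fibrotic arrays lay between 12.67 and 12.78, above every control, and fibrotic arrays lay under them all, but fibrotic array 7 was inside the control range. Ackr3 fell by 1.19 on the log2 scale (SE 0.28, adjusted p = 0.00826) relative to controls, and the difference from non-fibrotic bronchi was −1.73 (3.32-fold, SE 0.33, adjusted p = 0.00341). The call against controls depended on which controls were used, with −0.82 (adjusted p = 0.294) for controls 1 and 2 alone and −1.37 (adjusted p = 0.00412) for controls 3 to 6 alone. Without 1 array, Ackr3 was called against controls in 3 of 12 fits and between the exposed groups in 8. The contrast between exposed groups uses no control values in its means. As with Cxcl3, array 7 was the fibrotic array with the highest Ackr3 and the highest alveolar type II and secretory cell markers (15.71 and 14.13). Array 7 was also the highest for several other sums, among them macrophages (16.17), neutrophils (13.7), endothelium (13.87) and smooth muscle (14.84). Ciliated cell markers were highest in fibrotic array 9 (12.16). The part of any of these cells in the values of Ackr3 was not tested.

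The other atypical receptors were lower on the scale. Ackr4, which takes up Ccl19 and Ccl21, was above the level of absent transcripts on every array, with means of 8.20 ± 0.33 (SD, n = 6) in controls, 8.94 ± 0.79 (n = 3) in fibrotic and 9.43 ± 0.22 (n = 3) in non-fibrotic bronchi, and it was the only member higher in non-fibrotic bronchi than in controls at an adjusted p under 0.05 (log2 1.24, 2.35-fold, adjusted p = 0.0464). Non-fibrotic arrays (9.43, 9.22 and 9.65) lay above all controls. Ackr1, which carries chemokines across venular endothelium, had means of 7.19, 8.07 and 7.16 in controls, fibrotic and non-fibrotic bronchi (adjusted p = 0.233 in fibrotic bronchi), and Ackr2, a scavenger of inflammatory CC ligands, lay under the level of absent transcripts on 11 of 12 arrays.

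The remaining members are ligands of epithelium and lymphocytes. Cxcl16, a ligand of macrophages and epithelium, had means of 12.02 ± 0.61 (SD, n = 6), 12.14 ± 0.21 (n = 3) and 11.87 ± 0.22 (n = 3) in controls, fibrotic and non-fibrotic bronchi. Its difference between fibrotic bronchi and controls was 0.12 (SE 0.29, adjusted p = 0.817). Ccl28, a mucosal epithelial ligand of Ccr10 and Ccr3, straddled the level of absent transcripts in controls (6.17 to 7.07) and lay under it in fibrotic bronchi (3.14 to 5.49), for which the fitted difference of −2.01 (adjusted p = 0.0358) gives no bound. Ccl27, the skin ligand of Ccr10, had means of 7.28, 6.73 and 8.11 in the same order, with a log2 difference of −1.39 between the exposed groups (adjusted p = 0.0749). Ccr10 lay under the level of absent transcripts on 11 arrays, Xcl1, a ligand of lymphocytes, on 10, and Cxcl14, made by epithelium and fibroblasts, on 8, and none of these was called in any contrast.

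Ligands were set beside receptors in 33 textbook pairs with both members measured, which join 26 ligands and 16 receptors. In fibrotic bronchi against controls, both members had a positive difference in 23 pairs, both a negative one in 1 and opposite signs in 9. As 74.2% of ligands and 93.8% of receptors were positive there, most pairs would be positive however they were joined. Opposite pairs in fibrotic bronchi included Ccl20 with Ccr6, Cx3cl1 with Cx3cr1, Cxcl1 and Cxcl3 with Cxcr2, and Cxcl12 with Ackr3. In non-fibrotic bronchi against the same controls 2 pairs were both positive, 10 both negative and 21 opposite, and between the exposed groups 19, 3 and 11. In no contrast were both members of a pair called. Signs here include differences smaller than their error and genes under the level of absent transcripts, and pairs share members, so the counts are descriptions.

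Lists of genes that act with chemokines were counted in the same way. Beside them, 2.99% of all probe sets rose and 6.4% fell in fibrotic bronchi, and 0.164% and 0.358% did so in non-fibrotic bronchi. Between the exposed groups, 1.07% were higher and 2.75% lower in fibrotic bronchi. Of 30 genes of receptor signalling, none was called against controls in either exposed group, with medians of 0.91 in fibrotic and −0.15 in non-fibrotic bronchi. Against non-fibrotic bronchi, 4 were higher in fibrotic ones, among them the tyrosine kinases Fgr (a log2 difference of 5.81, or 3.17 with the level of absent transcripts as a floor) and Jak2 (1.85) and the leukocyte GTPase Rac2 (2.60), and the G protein subunit Gnai1 (−2.51, adjusted p = 0.0013) was lower. Of 22 inducers of chemokine genes, 3 rose in fibrotic bronchi. The cytokine Il1a had at least a 7.63-fold rise (adjusted p = 8.17e-05), and the receptor chains Il17ra and Ifngr1 rose by 1.59 (adjusted p = 0.000825) and 1.03. In the contrast of exposed groups 5 were higher in fibrotic bronchi, among them Ifngr1 (1.95), Il17ra (1.52), Il1b (4.55, or 4.22 with the floor) and Tnfaip3 (2.74), an inhibitor of NF-kB signalling, and none was called in non-fibrotic bronchi.

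Of 12 chemoattractants and their receptors outside the family, 3 rose and 1 fell in fibrotic bronchi, beside 2.99% and 6.4% of all probe sets. The complement receptors C5ar1 and C3ar1, which attract neutrophils and macrophages, rose by 3.85 (adjusted p = 0.000842) and 3.38 (adjusted p = 0.000648), Gpr15lg, a ligand of the lymphocyte receptor Gpr15, rose at least 7.31-fold (adjusted p = 0.000272), and Mif, a cytokine that also binds Cxcr2 and Cxcr4, fell by 1.83 (adjusted p = 0.000502). Of 10 genes that hold, shed or trap ligands, Tnfaip6, which binds chemokines and hyaluronan, rose at least 10.6-fold (adjusted p = 3.86e-05), Adam17, a protease that sheds Cx3cl1, rose by 1.02 (adjusted p = 0.00758), and Sdc4, a heparan sulphate proteoglycan, fell by 1.38 (adjusted p = 0.00147). In non-fibrotic bronchi no gene of either list was called, with medians of 0.25 and −0.05. At the low shares of all probe sets called there (0.164% and 0.358%), lists of this size need hold no call.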

How the data were processed

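The authors computed MAS5 signals, linear intensity values with 1 number per probe set and array, and set every array to a common trimmed mean of 500 before they deposited them. The labels' notes name MAS5 without a version. The values hold neither detection calls nor the error weights that the methods apply next. The design text names another array type than the annotation matched here, and the probe set names are those of the annotation.

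Signals were taken to log2 with no pseudocount and no filter, and 31042 of 31099 probe sets were tested, the other 57 being Affymetrix controls. R 4.3.3 and limma 3.58.1 were used to fit the 3 groups together, with lmFit and with eBayes set to an intensity trend, and every adjusted p in the text comes from there, with the Benjamini-Hochberg method applied per contrast. Of the probe sets, 20826 have 1 symbol, 436 have several and were given to no gene, and 9780 tested ones have none. The level of absent transcripts is the highest of 84 values of bacterial probe sets. Where a whole group lay under it, a bound was computed as the other group's mean log2 signal minus this level. Elsewhere a floor at this level was applied where stated. Marker sums are log2 of summed signals.

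The members and gene lists were chosen with earlier results of these data known. For called members the text gives exposed arrays singly and controls by lowest, median and highest. Alternatives changed the threshold, filter (lowest 40% dropped), floor (20th percentile), pseudocount (16), normalization, variance model, arrays fitted, controls used, a block for the forms of labels (statmod 1.5.0), the summary of probe sets and each array in turn. The labels number the samples without naming animals, so p-values measure the spread between these samples. The 12 arrays limit the precision. Promoters and symbols are from RefSeq (GRCr8), where all 47 members matched. Figures were drawn with matplotlib 3.10.9.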

Additional observations from a re-analysis of the deposited data

Results flagged for a closer look

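Among the 6 controls, 6 members had an array far from the others by Dixon's criterion, which chance meets in about 1 of 20 groups. Control 5 was the low array for Ccl19 (7.77, the next control at 10.51), Ccl20 (8.09, next 11.25), Ccl22 (3.11, next 4.39) and Ccr4 (0.73, next 4.86), the last pair lying under the level of absent transcripts. Control 1 was low for Cxcl2 (0.97, next 6.66), and control 2 for Pf4 (4.59, next 7.00). Ccl22, Ccr4 and Cxcl2 values of this size are under the signal of transcripts absent from the samples, where differences have no order.

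The exposed groups differed from each other, by the contrast between them in the limma model, in Ackr3 (−1.73 on the log2 scale), Ccl9 (3.23) and Cxcl3 (−4.80, in the probe set of highest signal).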

How the results depend on the processing

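No called difference changed sign under any alternative. Differences of called genes that were not themselves called did so in non-fibrotic bronchi against controls, where Cxcl3 went from 0.72 to −0.74 with the mean of its probe sets, Pf4 from 0.66 to −0.22 without non-fibrotic array 4, and Ccl22, under the level of absent transcripts in both groups, from −0.55 to between 0.24 and 1.03 in 4 settings. Ccr2 was called in fibrotic bronchi in 25 of 26 settings, Cxcl3 in 19, Pf4 in 18, Ccl20 in 13, Ccl22 in 12 of 25 and Ackr3 in 11. Ccr2, Pf4, Ccl20 and Ackr3 have 1 probe set each. For them the setting with the probe set of second highest signal repeats the main fit and could not change the call. The mean of a gene's probe sets is also the same signal for these genes, so only the rest of the fit changed. In fibrotic bronchi against controls the 6 calls became 15 at an adjusted p under 0.05, 2 without the intensity trend, 11 with the arrays of these groups alone, 1 (Ccl20) with controls 1 and 2 alone, and 2 (Ccr2 and Pf4) and 1 (Ccr2) with a random and a fixed block for the forms of labels. In non-fibrotic bronchi against controls the single call became 3 at 0.05, 2 (Ccl20 and Cxcl6) by a fold over 2 with an unadjusted p under 0.001 or by quantile normalization, and 0 without the trend, with array weights, with these groups alone, with either set of controls alone or with either block. Between the exposed groups the 3 calls became 16 at 0.05, 6 by fold and unadjusted p, 5 with the floor at the 20th percentile or the pseudocount, 0 without the trend or with array weights, and 1 (Ccr6) with these groups alone. Leaving out 1 array at a time gave 1 to 11 calls in fibrotic bronchi, 0 to 1 in non-fibrotic bronchi and 0 to 11 between the exposed groups. In fibrotic bronchi the count was 1 without control 6, 2 without fibrotic array 3 or 9, 3 without control 3, 4 or 5 and 11 without non-fibrotic array 8. Between the exposed groups it was 11 without non-fibrotic array 4, 0 without non-fibrotic array 8 or 10 or fibrotic array 9, and 1 without control 2, 3, 4 or 6 or fibrotic array 3. In non-fibrotic bronchi it was 0 except without control 5 or fibrotic array 3, where Ccl20 was called, and without non-fibrotic array 4, where Ccl9 was. The cause was not tested. No paired analysis was possible because the groups compared share at most 1 replicate number and the labels do not tie specimens to rats. Signals near the level of absent transcripts limit 36 of the 47 members, which lay under it on at least 1 array.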
